A study of Homo sapiens with 6 samples.

Results

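The genes described here encode the main protein-folding machines of the human cell: the HSP70 and HSP110 chaperones, HSP90, the small heat shock proteins, the chaperonins and the J-domain (DNAJ) proteins. They follow from a rule on gene symbols that uses no measured value: symbols of the form HSPA, HSPB, DNAJA, DNAJB, DNAJC or CCT followed by a number, together with HSPD1, HSPE1, HSPH1, the 3 HSP90 genes and TCP1. This gave 81 of the 60664 genes in the table: 16 of HSP70 and HSP110, 3 of HSP90, 8 small heat shock proteins, 9 of the cytosolic CCT chaperonin, the mitochondrial pair HSPD1 and HSPE1, and 4 DNAJA, 13 DNAJB and 26 DNAJC genes. Their RNA was measured in 3 libraries from SW480 cells given Amuc_0904 and in 3 libraries from SW480 cells given buffer. SW480 is a human colon cancer cell line, listed as wild type in both groups. Amuc_0904 is written like a gene identifier of Akkermansia muciniphila, a bacterium of the gut, and the labels give neither the preparation nor a dose or time. They do not say whether the libraries came from separate cultures, so p-values measure the spread between the samples as labelled.

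HSP70 proteins bind short hydrophobic stretches of unfolded proteins and release them in a cycle driven by ATP. J-domain proteins deliver the client and start ATP hydrolysis, and HSP110 proteins and other exchange factors reset the cycle. HSP90 takes over clients such as kinases and steroid receptors late in folding, CCT folds actin and tubulin inside a closed chamber, and HSPD1 with its lid HSPE1 does so for mitochondrial proteins. Many of these genes are induced by heat or proteotoxic stress through the transcription factor HSF1, which binds repeats of the motif GAA in alternating orientation.

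The deposited values are TPM, a share of each library scaled by transcript length. They do not tell how many reads were sequenced, so the depth is unknown and no counting interval can be given. The libraries held 14244 to 14420 genes at 1 TPM or more in the Amuc_0904 group and 14481 to 14586 in the buffer group. The slope of expression with transcript GC content was lower in each Amuc_0904 library than in each buffer library. It was -0.04 to 0.07 log2 units per 10 percentage points with Amuc_0904 and 0.07 to 0.16 with buffer. The epithelial markers EPCAM, KRT8, KRT18 and KRT19 were high in all libraries, while VIL1 and KRT20, 2 further markers of the 8, lay near or under 1 TPM in both groups. CDH1, at 3.80 TPM with Amuc_0904 and 7.01 TPM with buffer, was the single marker past the threshold (log2 fold change -0.73, limma adjusted p = 0.044), and CDX2 was at 18.2, 19.3 and 18.5 TPM with Amuc_0904 and 30.7, 31.2 and 21.9 TPM with buffer (limma adjusted p = 0.077). The 8 epithelial markers summed to 7092 to 7380 TPM with Amuc_0904 and 7907 to 8148 TPM with buffer. Of other cell types, 6 leukocyte markers summed to 4.64 to 5.21 TPM with Amuc_0904 and 3.06 to 3.36 TPM with buffer, with PTPRC and MS4A1 listed at 0 throughout. Of that list CD68, a gene of macrophages and lysosomes, was at 3.11, 2.33 and 3.08 TPM with Amuc_0904 and 1.68, 1.10 and 1.48 TPM with buffer (limma adjusted p = 0.077). The 6 fibroblast markers summed to 1.40 to 2.19 TPM with Amuc_0904 and 1.70 to 3.18 TPM with buffer, and the 4 endothelial markers stayed at or under 0.80 TPM. The part of these differences in the results was not tested, and in bulk RNA fewer cells of a kind and less RNA per cell cannot be told apart.

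The promoters of 4 members whose levels are described in full are shown because HSPB1, HSPA1A and HSPA1B, with 1 HSF1-type motif each, can be set beside HSPA8, which holds more. Each is the 250 bases before the RefSeq gene start in GRCh38.p14, written 5' to 3' on the gene's strand, with capitals at every GAANNTTC or TTCNNGAA. HSPB1 (chr7:76302423-76302672, plus strand) holds the motif once, and so do the neighbouring copies HSPA1A (chr6:31815293-31815542, plus strand) and HSPA1B (chr6:31827488-31827737, plus strand). In HSPA8 (chr11:123062137-123062386, minus strand) 4 overlapping matches form 2 motifs of 3 units.
HSPB1: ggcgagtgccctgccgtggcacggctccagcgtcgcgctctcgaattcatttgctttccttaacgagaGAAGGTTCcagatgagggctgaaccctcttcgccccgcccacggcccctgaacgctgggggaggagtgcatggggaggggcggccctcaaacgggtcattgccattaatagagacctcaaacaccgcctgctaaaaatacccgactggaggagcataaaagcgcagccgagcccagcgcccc
HSPA1A: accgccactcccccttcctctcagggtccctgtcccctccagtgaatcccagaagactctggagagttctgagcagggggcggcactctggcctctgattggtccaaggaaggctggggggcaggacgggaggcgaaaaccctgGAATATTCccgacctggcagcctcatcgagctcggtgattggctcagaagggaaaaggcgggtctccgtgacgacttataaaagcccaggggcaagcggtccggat
HSPA1B: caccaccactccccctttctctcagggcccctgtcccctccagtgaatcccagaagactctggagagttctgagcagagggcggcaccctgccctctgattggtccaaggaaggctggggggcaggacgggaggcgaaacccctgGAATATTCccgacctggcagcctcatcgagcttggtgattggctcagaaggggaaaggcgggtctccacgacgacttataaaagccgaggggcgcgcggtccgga
HSPA8: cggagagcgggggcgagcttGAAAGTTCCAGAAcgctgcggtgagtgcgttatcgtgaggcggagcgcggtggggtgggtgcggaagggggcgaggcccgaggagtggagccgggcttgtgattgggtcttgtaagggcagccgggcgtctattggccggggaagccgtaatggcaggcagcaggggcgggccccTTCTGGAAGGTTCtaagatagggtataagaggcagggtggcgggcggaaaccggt
The motif starts 182 bases before the gene start in HSPB1, 106 in HSPA1A and 105 in HSPA1B. The matches in HSPA8 start 230, 225, 55 and 50 bases before it. These 4 promoters do not stand for all members with the motif. The 10 tested ones had 4 positive and 6 negative log2 fold changes, and the number of motifs was not tested against fold change.

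SW480 cells carried a large pool of chaperone RNA, of similar size in both groups. The 81 members together made up 1.34%, 1.31% and 1.38% of listed TPM in the Amuc_0904 libraries and 1.34%, 1.27% and 1.29% in the buffer libraries. Over all 6 libraries 4 members averaged at least 1000 TPM, 25 at least 100 TPM, and 67 passed the filter of at least 1 TPM in at least 3 libraries. Of the 14 that did not, the pseudogene HSPA7 and the genes DNAJB8, HSPB2 and HSPB3 were listed at 0 in every library. The other 10 reached at most 1.31 TPM in any library, and they included HSPA6, an HSP70 gene that human cells express after severe stress. HSPA6 was at 0.05, 0.11 and 0.02 TPM with Amuc_0904 and at 0.02, 0.02 and 0.06 TPM with buffer, so it was near 0 in both groups.

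The order of the most abundant members was nearly fixed. HSPA8 was highest in every library, followed by HSPE1, HSP90AA1 and HSP90AB1. HSPD1 and then HSPB1 came next in all Amuc_0904 libraries and in buffer replicate 1, and these places were exchanged in buffer replicates 2 and 3. The 6 genes held 58.1% to 58.9% of the family total with Amuc_0904 and 58.5% to 58.7% with buffer.

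**Figure D1:**
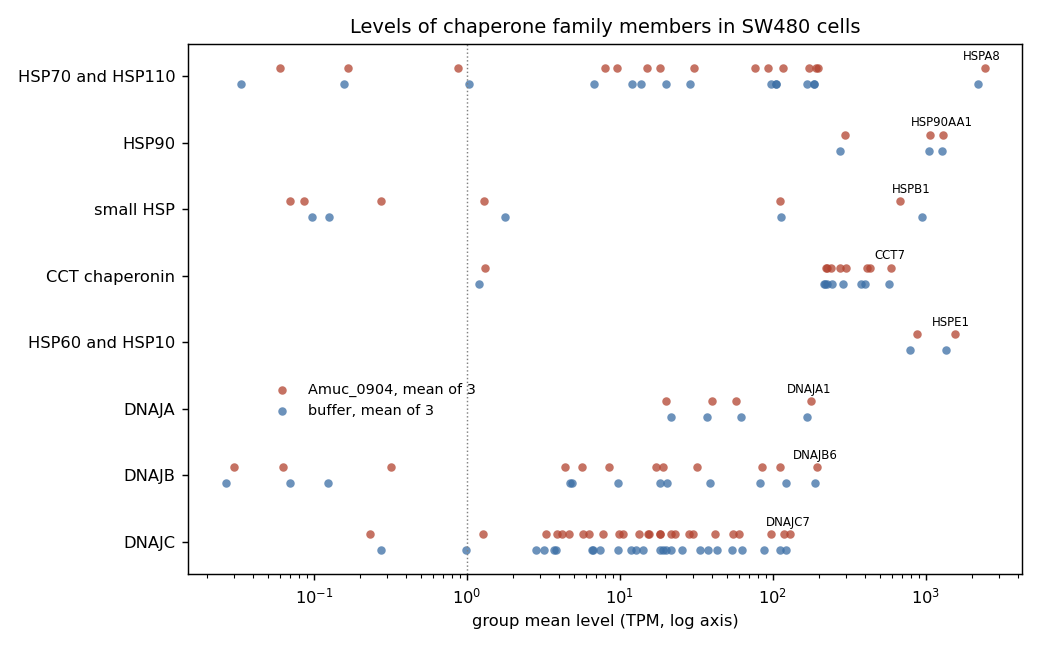
Mean level of each member in TPM on a log axis, by family, with the mean of 3 Amuc_0904 libraries in red above the mean of 3 buffer libraries in blue; the dotted line is 1 TPM and means of 0 are not drawn. The highest member of each family is named, and HSPA8 has the highest mean of all members in both groups.

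With Amuc_0904 against buffer, no member passed the test across all genes: in limma, 0 of the 67 tested members had an adjusted p under 0.05, where 1.37% of all 14421 tested genes did (0.368% higher and 0.999% lower). At an unadjusted p under 0.05 there were 10 members, 4 higher and 6 lower, which is 14.9% of those tested against 20.8% of all genes (4.49% higher and 16.3% lower). Members higher in all 3 Amuc_0904 libraries than in any buffer library numbered 7, against 7.00% of all genes, and 11 were lower in all 3, against 20.1% of all genes. The groups overlapped for the other 49. The log2 fold change was positive for 38 members and negative for 29, while 37.5% of all genes had a positive value.

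The size of the differences was small. The median log2 fold change of the tested members was 0.04, against -0.06 for all tested genes. Once each library's trend with GC content was removed, it was -0.02 for the members, against -0.07 for all tested genes with a GC value. The values ran from -0.48 for HSPB1 to 0.32 for DNAJC16. Without regard to sign, the median was 0.12 for the members and 0.14 for all genes. All log2 fold changes are of TPM + 1, so differences between lowly expressed genes are understated.

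**Figure D2:**
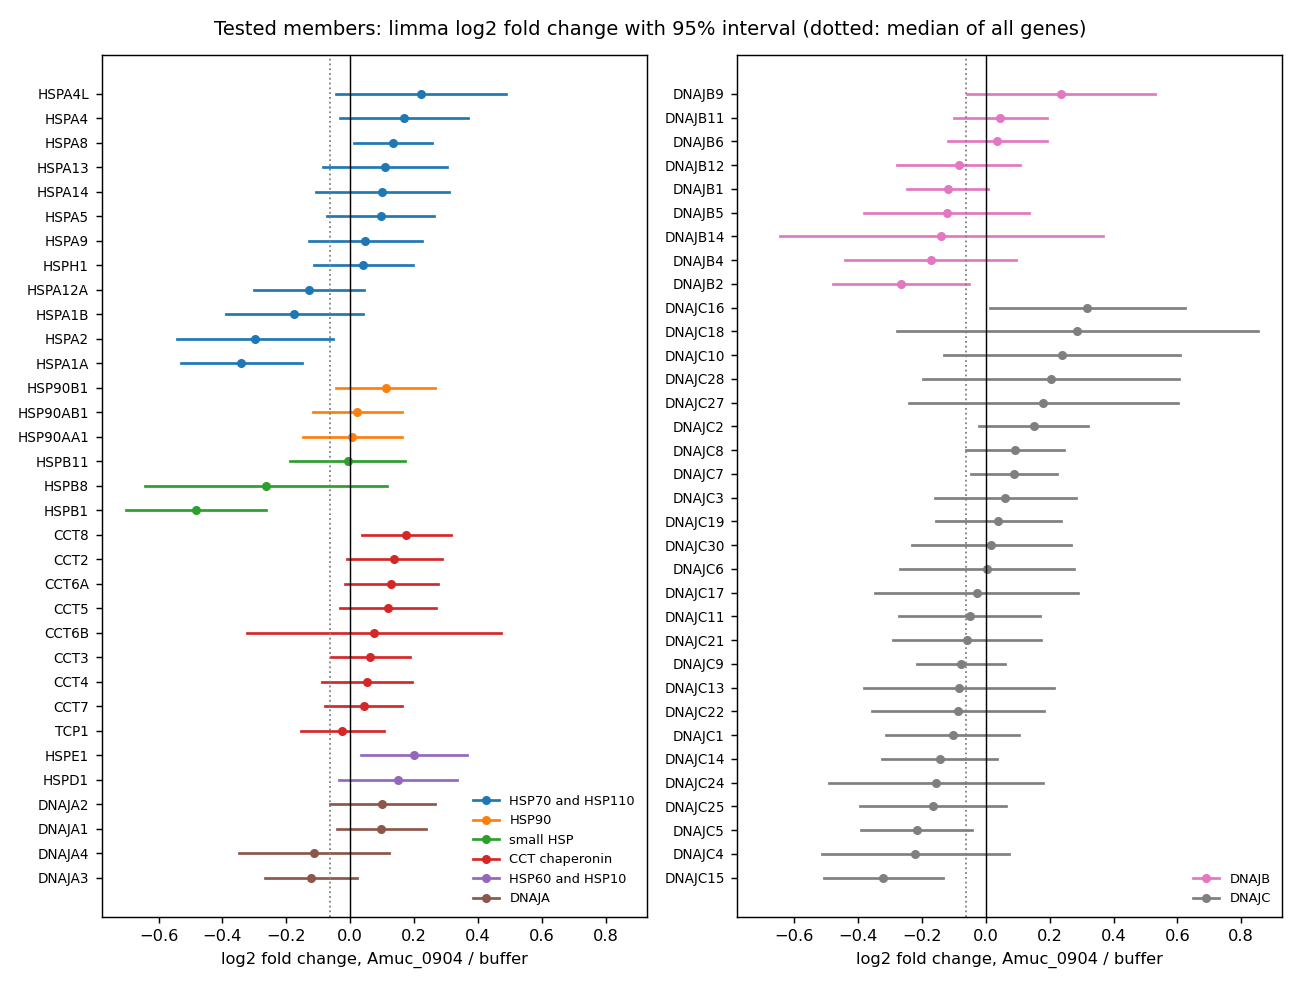
Log2 fold change (Amuc_0904 over buffer, on log2(TPM + 1)) of the 67 tested members with 95% intervals from limma, by family; the dotted line is the median of all tested genes, -0.06. HSPB1 has the lowest value and DNAJC16 the highest, and no member passed the adjusted threshold.

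Among the small heat shock proteins, HSPB1 had the lowest fold change of all members. It encodes HSP27, a chaperone that holds unfolding proteins in large oligomers and binds the actin cytoskeleton. HSPB1 (ENSG00000106211, chr7:76302544-76304295 in GENCODE 29 on GRCh38) was at 687, 738 and 589 TPM in the Amuc_0904 libraries, against 847, 982 and 980.3 TPM in the buffer libraries. Every Amuc_0904 value was below every buffer value. The means were 671 ± 75.8 TPM with Amuc_0904 and 936 ± 77.6 TPM with buffer (SD, n = 3 each), a difference of -28.3%. The log2 fold change was -0.48 (SE 0.10, 95% interval -0.70 to -0.26), with a limma adjusted p of 0.053, just outside the threshold. Over the alternative settings its adjusted p ran from 0.031 to 0.19 and its log2 fold change from -0.55 to -0.34. It passed with a filter of 5 TPM (adjusted p = 0.031) and after GC removal (log2 fold change -0.34, SE 0.06, adjusted p = 0.046).

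HSPB1 has the most GC-rich transcript of the tested members, at 64.3%. Tested genes with a GC content from 60% to 65% had a median log2 fold change of -0.19, so genes of that composition as a whole were lower, and the part of GC content in the HSPB1 value was tested only through the removal given above. The groups overlapped for the other tested members of the family. HSPB8, a partner of the exchange factor BAG3, was at 1.23, 1.23 and 1.42 TPM with Amuc_0904 and 2.02, 2.04 and 1.27 TPM with buffer (log2 fold change -0.26, limma adjusted p = 0.40). HSPB11, named with this family but known as a subunit of the ciliary transport complex, was at 120.0, 107 and 107 TPM with Amuc_0904 and 119.8, 103 and 114 TPM with buffer. Its log2 fold change was -0.01 (95% interval -0.19 to 0.17).

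The inducible HSP70 genes HSPA1A and HSPA1B, the classical heat shock genes of human cells, were also lower or overlapping. HSPA1A (ENSG00000204389, chr6:31815464-31817946) was at 73.1, 84.9 and 72.5 TPM with Amuc_0904 and at 91.5, 105 and 96.2 TPM with buffer. All Amuc_0904 values lay below all buffer values. The log2 fold change was -0.34 (SE 0.08, 95% interval -0.53 to -0.15), at a limma adjusted p of 0.079 that ran from 0.053 to 0.25 over the alternatives. HSPA1B (ENSG00000204388, chr6:31827735-31830255) was at 94.3, 102 and 83.6 TPM with Amuc_0904 and 94.5, 114 and 108 TPM with buffer, with a log2 fold change of -0.17 (95% interval -0.39 to 0.04, limma adjusted p = 0.33). The buffer range began just above 94.3 TPM, so the groups overlapped only through Amuc_0904 replicate 2.

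HSPA1A and HSPA1B are near-identical copies: their coding sequences are 1923 bases long and differ at 4 bases (99.8% identity). Reads can be shared between them, and their separate levels are uncertain. The ratio of HSPA1A to HSPA1B was 0.775, 0.835 and 0.867 with Amuc_0904 and 0.969, 0.921 and 0.894 with buffer. Their sum, which does not depend on the split, was 167, 187 and 156 TPM with Amuc_0904 and 186, 218 and 204 TPM with buffer. For this sum the groups overlapped, as Amuc_0904 replicate 2 lay just above buffer replicate 1, unlike for HSPA1A alone. The sum was 6.90%, 7.90% and 6.40% of HSPA8 with Amuc_0904 and 8.21%, 10.2% and 9.35% with buffer, so the inducible pair was a small fraction of the constitutive gene in both groups. Transcript GC content was 59.7% for HSPA1A and 58.7% for HSPA1B, and tested genes from 55% to 60% had a median log2 fold change of -0.15. After GC removal HSPA1A was at -0.24 (limma adjusted p = 0.10) and HSPA1B at -0.08 (adjusted p = 0.53), and without Amuc_0904 replicate 3 HSPA1B was at -0.10.

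HSPA8, the constitutive cytosolic HSP70 that also uncoats clathrin vesicles, was higher in every Amuc_0904 library. It was at 2427, 2363 and 2440.1 TPM with Amuc_0904 and at 2266, 2143 and 2179 TPM with buffer, without overlap. The means were 2409.9 ± 41.4 TPM with Amuc_0904 and 2196 ± 63.1 TPM with buffer (SD, n = 3 each), a difference of 9.76%. The log2 fold change was 0.13 (SE 0.05, 95% interval 0.01 to 0.26), which did not pass (limma adjusted p = 0.20). HSPA8 has 17 named pseudogenes and contains small nucleolar RNA genes on its own strand, and a part of its reads may be assigned elsewhere. Set against HSPA8 within each library, HSPB1 amounted to 28.3%, 31.2% and 24.1% with Amuc_0904 and to 37.4%, 45.8% and 45.0% with buffer.

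**Figure D3:**
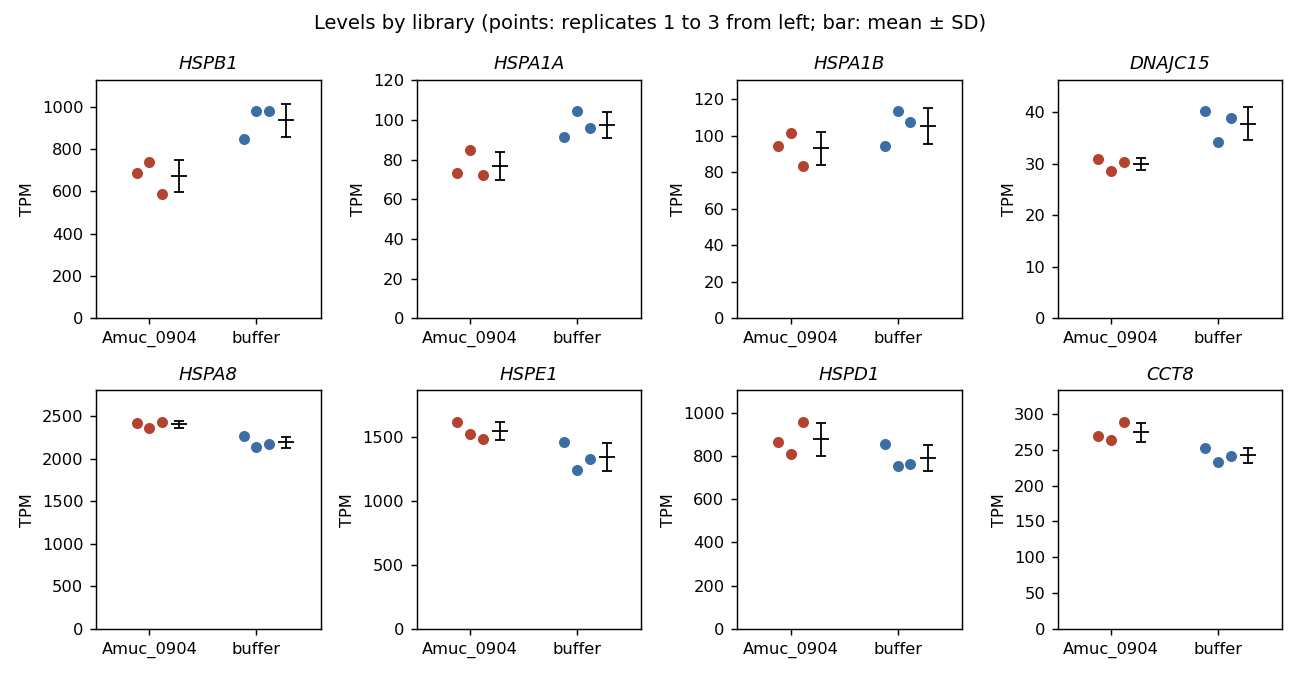
TPM of HSPB1, HSPA1A, HSPA1B, DNAJC15, HSPA8, HSPE1, HSPD1 and CCT8 in each library, with the mean and SD of 3 libraries, Amuc_0904 left and buffer right. HSPB1, HSPA1A and DNAJC15 are lower and HSPA8, HSPE1 and CCT8 higher in every Amuc_0904 library than in any buffer library.

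The main HSP70 genes of the endoplasmic reticulum and the mitochondrion, HSPA5 and HSPA9, overlapped between the groups. HSPA5 encodes BiP, the HSP70 of the endoplasmic reticulum and a marker gene of the unfolded protein response. It was at 189, 185 and 219 TPM with Amuc_0904 and 188, 185 and 180.4 TPM with buffer (log2 fold change 0.10, limma adjusted p = 0.50). The value of Amuc_0904 replicate 3 stood above the other 5, and without it the log2 fold change was 0.02. HSPA9, the mitochondrial HSP70, was at 179, 185 and 212 TPM with Amuc_0904 and 192, 189 and 174 TPM with buffer, with a log2 fold change of 0.05 (limma adjusted p = 0.77). As with HSPA5, the highest value was that of Amuc_0904 replicate 3.

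The HSP110 proteins act as exchange factors of HSP70, and the 3 HSP110 genes among the members had positive but small fold changes. HSPA4 was at 120.1, 109 and 122 TPM with Amuc_0904 and 117, 98.3 and 96.7 TPM with buffer (log2 fold change 0.17, limma adjusted p = 0.31). HSPA4L was at 8.46, 6.85 and 8.80 TPM with Amuc_0904 and 6.45, 6.54 and 7.18 TPM with buffer (log2 fold change 0.22, limma adjusted p = 0.32). The groups overlapped for both. The heat-inducible HSPH1 was at 173, 162 and 183 TPM with Amuc_0904 and 178, 164 and 161 TPM with buffer (log2 fold change 0.04, limma adjusted p = 0.77). HYOU1, their relative in the endoplasmic reticulum and no member by symbol, was chosen after its values were seen. It was at 68.9, 73.0 and 75.4 TPM with Amuc_0904 and 82.3, 86.6 and 82.3 TPM with buffer, lower in all 3 (log2 fold change -0.21, limma adjusted p = 0.12).

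HSPA2, an HSP70 gene best known for its role in spermatogenesis, was at 9.19, 10.97 and 8.51 TPM with Amuc_0904 and 12.2, 11.7 and 11.9 TPM with buffer. All Amuc_0904 values were lower, with a log2 fold change of -0.30 (95% interval -0.54 to -0.05, limma adjusted p = 0.17). The GC content of 43.9% is that of its longest annotated transcript, which has 5400 bases, while the coding sequence has 1917. Which transcript the cells expressed is not known. After GC removal, which used this value, the log2 fold change of HSPA2 was -0.37 (limma adjusted p = 0.15). HSPA12A, a distant HSP70 relative, was likewise lower in all 3, with a mean of 18.2 TPM with Amuc_0904 and 19.96 TPM with buffer. HSPA13, a microsomal HSP70 relative, was higher in all 3, with a mean of 15.0 TPM with Amuc_0904 and 13.8 TPM with buffer. The family summed to 3338, 3269 and 3417 TPM with Amuc_0904 and 3211, 3076 and 3079 TPM with buffer. Its median log2 fold change was 0.07 over 12 tested genes, and -0.02 after GC removal.

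The values of the HSP90 genes overlapped between the groups. The stress-inducible cytosolic form HSP90AA1 was at 1245, 1211 and 1389 TPM with Amuc_0904 and 1329.9, 1242 and 1250.3 TPM with buffer. Its log2 fold change was 0.01, with a 95% interval of -0.15 to 0.16. The constitutive form HSP90AB1 was at 1035, 1024 and 1143 TPM with Amuc_0904 and 1077, 1042 and 1031 TPM with buffer, with a log2 fold change of 0.02 (95% interval -0.12 to 0.16). Both intervals lie within 0.16 log2 units of 0. The signs of both fold changes turned after GC removal, to -0.05 and -0.00078. The ratio of HSP90AA1 to HSP90AB1 was 1.20, 1.18 and 1.22 with Amuc_0904 and 1.24, 1.19 and 1.21 with buffer. HSP90B1 encodes GRP94, the form in the endoplasmic reticulum. It was at 293, 275 and 316 TPM with Amuc_0904 and 286, 264 and 267 TPM with buffer (log2 fold change 0.11, 95% interval -0.04 to 0.27, limma adjusted p = 0.38). Its log2 fold change was 0.06 without Amuc_0904 replicate 3 and 0.02 after GC removal.

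The chaperonin genes mostly had positive fold changes, and none passed the test. Of the 9 tested CCT genes 8 had a positive log2 fold change and 1 a negative one, with a median of 0.07, and 3 (CCT2, CCT3 and CCT8) were higher in all 3 Amuc_0904 libraries. Over all tested genes 37.5% had a positive value and 7.00% were higher in all 3. The median transcript GC content was 44.6% for the CCT genes and 49.2% for all tested genes. After GC removal TCP1 was at -0.09, CCT6B at -0.05 and CCT4 at -0.01, and the other CCT genes stayed positive. CCT8, a subunit of the ring, was at 269.6, 264 and 289 TPM with Amuc_0904 and 253, 233 and 242 TPM with buffer. The means were 274 ± 13.5 TPM with Amuc_0904 and 243 ± 10.3 TPM with buffer (SD, n = 3 each), and the log2 fold change was 0.18 (SE 0.06, 95% interval 0.04 to 0.32, limma adjusted p = 0.16). CCT2 was at 237, 230.1 and 256 TPM with Amuc_0904 and 229, 206 and 221 TPM with buffer. Its log2 fold change was 0.14 (95% interval -0.01 to 0.29, limma adjusted p = 0.27). The smallest difference without overlap was that of CCT3, at 289, 293 and 311 TPM with Amuc_0904 and 288, 278 and 288 TPM with buffer.

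The other 5 subunits overlapped between the groups. CCT7 was the most abundant, at 596, 585 and 577 TPM with Amuc_0904 and 589, 550.0 and 569 TPM with buffer. CCT5 was at 436, 403 and 452 TPM with Amuc_0904 and 416, 377 and 395 TPM with buffer, and CCT6A at 406, 394 and 436 TPM with Amuc_0904 and 398, 359 and 374 TPM with buffer. Log2 fold changes were 0.04 for CCT7, 0.12 for CCT5 and 0.13 for CCT6A, with limma adjusted p from 0.29 to 0.69. CCT4 was at 223, 214 and 239 TPM with Amuc_0904 and 225, 210.3 and 215 TPM with buffer (log2 fold change 0.05). TCP1, the founding subunit, was at 214, 223 and 229 TPM with Amuc_0904 and 218, 236 and 224 TPM with buffer, and at -0.02 it was the member of the complex with a negative log2 fold change. That sign turned with each library centred on its median (0.06) and with quantile normalization (0.00065). CCT6B, a relative of CCT6A that is mainly expressed in testis, was at 1.04 to 1.56 TPM with Amuc_0904 and 0.940 to 1.56 TPM with buffer.

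The 8 subunits form the CCT ring in equal numbers, but their RNA levels were unequal in every library. The order CCT7, CCT5, CCT6A, CCT3 headed all 6 libraries, and CCT7 exceeded the lowest of the 8 subunits by 2.78, 2.73 and 2.52 times with Amuc_0904 and by 2.70, 2.66 and 2.64 times with buffer. CCT8, CCT2, CCT4 and TCP1 followed in an order that varied between libraries, and the range of CCT4 overlapped those of CCT2 and TCP1 in both groups. The ranges of CCT2 and TCP1 overlapped with buffer, while with Amuc_0904 the lowest CCT2 value, 230.1 TPM, lay just above the highest TCP1 value, 229 TPM. The coefficient of variation over the 8 subunits was 40.2%, 39.3% and 36.0% with Amuc_0904 and 40.1%, 38.6% and 39.2% with buffer. The share of CCT8 in the summed RNA of the 8 was 10.1%, 10.1% and 10.4% with Amuc_0904 and 9.68%, 9.50% and 9.57% with buffer.

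**Figure D4:**
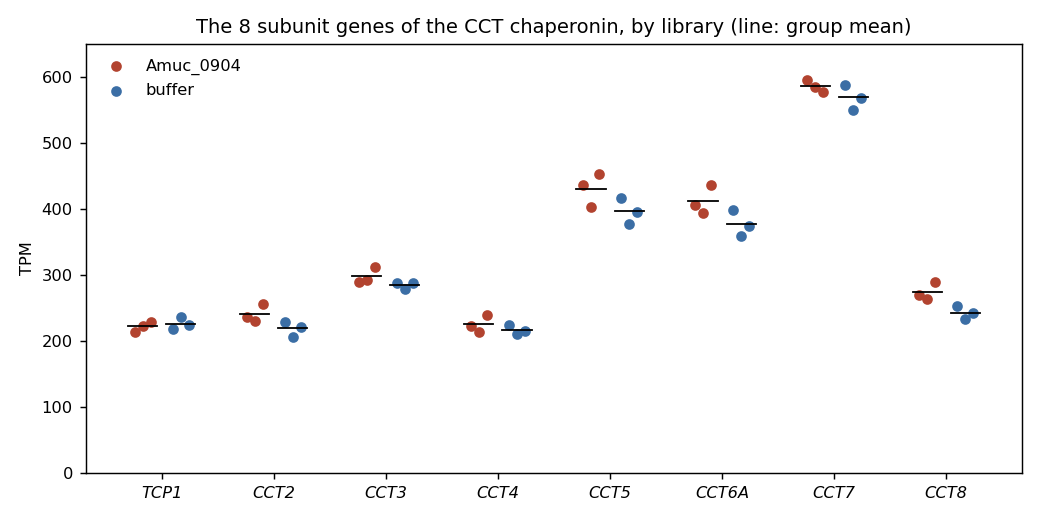
TPM of the 8 subunits of the CCT chaperonin in each library, Amuc_0904 in red and buffer in blue. CCT7, CCT5, CCT6A and CCT3 keep this order in all 6 libraries, and CCT8 is higher in all Amuc_0904 libraries (264 to 289 TPM) than in the buffer libraries (233 to 253 TPM).

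The mitochondrial chaperonin genes HSPE1 (HSP10) and HSPD1 (HSP60) lie head to head on chromosome 2 and overlap in the annotation. HSPE1 (ENSG00000115541) was at 1622, 1526 and 1485 TPM with Amuc_0904 and 1466, 1246 and 1329 TPM with buffer, and all Amuc_0904 values were higher. The means were 1544 ± 70.0 TPM with Amuc_0904 and 1347 ± 111 TPM with buffer (SD, n = 3 each), with a log2 fold change of 0.20 (SE 0.07, 95% interval 0.03 to 0.37, limma adjusted p = 0.17). HSPD1 (ENSG00000144381) was at 864, 808 and 959.6 TPM with Amuc_0904 and 858, 753 and 761 TPM with buffer. Its groups overlapped, with a log2 fold change of 0.15 (95% interval -0.04 to 0.33, limma adjusted p = 0.33) that was 0.08 without Amuc_0904 replicate 3 and 0.08 after GC removal. HSPE1 exceeded HSPD1 by 1.88, 1.89 and 1.55 times with Amuc_0904 and by 1.71, 1.66 and 1.75 times with buffer. HSPE1 has 26 named pseudogenes and HSPD1 17, and strand use in counting is not stated, so reads shared with these copies and between the overlapping neighbours are uncertain.

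The J-domain genes were many and mostly of low to middle abundance, and they showed no common direction. DNAJA1, DNAJB1 and DNAJB6 were the most abundant of the A and B types. DNAJA1, a main cytosolic partner of HSPA8, was at 179.9, 172 and 183 TPM with Amuc_0904 and 176, 159.7 and 164 TPM with buffer (log2 fold change 0.10, limma adjusted p = 0.40). DNAJB6, which keeps polyglutamine proteins from aggregating, was at 193, 179 and 207 TPM with Amuc_0904 and 196, 183 and 184 TPM with buffer (log2 fold change 0.04, limma adjusted p = 0.81). DNAJB1, the heat-inducible HSP40, was at 115, 113 and 108 TPM with Amuc_0904 and 121, 124 and 120.2 TPM with buffer. Its Amuc_0904 values were all lower, with a log2 fold change of -0.12 (SE 0.06, 95% interval -0.25 to 0.01) that did not pass (limma adjusted p = 0.26). DNAJA3, the mitochondrial type A protein, was lower in all 3 as well, at 58.1, 58.7 and 54.5 TPM with Amuc_0904 and 60.3, 64.0 and 62.4 TPM with buffer (log2 fold change -0.12, limma adjusted p = 0.31).

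DNAJB2, a J-domain protein with ubiquitin-binding motifs, was at 33.0, 33.2 and 29.9 TPM with Amuc_0904 and 35.7, 43.8 and 37.0 TPM with buffer. The groups did not overlap, and the log2 fold change was -0.27 (95% interval -0.48 to -0.05, limma adjusted p = 0.16). DNAJB9, an endoplasmic reticulum J protein, was at 5.96, 5.55 and 5.53 TPM with Amuc_0904 and 4.02, 5.60 and 4.50 TPM with buffer, with overlap (log2 fold change 0.24, limma adjusted p = 0.34). DNAJB11, its more abundant relative in the same compartment, was at means of 85.1 TPM with Amuc_0904 and 82.3 TPM with buffer. DNAJB14 had a wide spread: Amuc_0904 replicate 3, at 27.7 TPM, stood apart from 13.5 and 16.1 TPM in the other two, against 18.6 to 21.2 TPM with buffer. The median log2 fold change was -0.12 over the 9 tested DNAJB genes and -0.01 over the 4 DNAJA genes. The sign for DNAJA turned with median centring (0.07), and its median ran from -0.02 to 0.04 with each library left out.

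DNAJC15 had the smallest adjusted p among the DNAJC genes. It encodes a J protein of the mitochondrial inner membrane linked to protein import. DNAJC15 (ENSG00000120675, chr13:43023203-43114224) was at 30.9, 28.6 and 30.2 TPM with Amuc_0904 and at 40.2, 34.1 and 38.8 TPM with buffer, without overlap. The means were 29.9 ± 1.18 TPM with Amuc_0904 and 37.7 ± 3.19 TPM with buffer (SD, n = 3 each), a difference of -20.7%. The log2 fold change was -0.32 (SE 0.08, 95% interval -0.51 to -0.14), and it did not pass (limma adjusted p = 0.086). Its longest annotated transcript has 7853 bases and a GC content of 38.7%, and tested genes from 35% to 40% had a median log2 fold change of 0.05. As for HSPA2, the transcript that the cells expressed is not known. After GC removal, which used this GC value, the log2 fold change was -0.43 and passed (limma adjusted p = 0.029). It passed in 1 of 13 alternatives, and over all of them the limma adjusted p ran from 0.029 to 0.20. The related import protein DNAJC19 was at 52.5, 55.4 and 57.6 TPM with Amuc_0904 and 47.6, 57.9 and 56.0 TPM with buffer.

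The most abundant DNAJC genes overlapped between the groups. DNAJC7, which has TPR repeats that bind HSP70 and HSP90, was at 124, 130.3 and 134 TPM with Amuc_0904 and 126, 117 and 121 TPM with buffer (log2 fold change 0.09, limma adjusted p = 0.44). DNAJC8, a protein linked to splicing, was at 118, 113 and 124 TPM with Amuc_0904 and 119, 108 and 107 TPM with buffer (log2 fold change 0.09, limma adjusted p = 0.48). DNAJC2, which works with HSPA14 at the ribosome, was at means of 96.5 TPM with Amuc_0904 and 86.9 TPM with buffer, and HSPA14 at 30.7 TPM with Amuc_0904 and 28.6 TPM with buffer. Neither of this pair passed, with log2 fold changes of 0.15 and 0.10.

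Of the remaining DNAJC genes, DNAJC5, the cysteine string protein of secretory vesicles, was at 27.5, 29.7 and 28.1 TPM with Amuc_0904 and 31.3, 35.6 and 32.7 TPM with buffer. All Amuc_0904 values were lower (log2 fold change -0.22, limma adjusted p = 0.16), as were those of DNAJC14 and DNAJC25. DNAJC10, a reductase of the endoplasmic reticulum, was at 13.5, 12.9 and 19.3 TPM with Amuc_0904 and 14.3, 13.0 and 10.7 TPM with buffer, so its log2 fold change of 0.24 rested on Amuc_0904 replicate 3 and was 0.07 without it. DNAJC16 was at 4.64, 4.29 and 3.68 TPM with Amuc_0904 and 3.14, 3.59 and 2.79 TPM with buffer, higher in all 3 but not past the threshold (log2 fold change 0.32, limma adjusted p = 0.22). The 25 tested DNAJC genes divided into 12 with a positive and 13 with a negative log2 fold change. Their median was -0.03, which turned to 0.05 with median centring and with quantile normalization. It ran from -0.06 to 0.01 with each library left out.

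Across the 67 tested members, the log2 fold change was lower where transcript GC content was higher. Spearman's rho was -0.41 and Pearson's r -0.47, as a description over genes that share the same 6 libraries. Over the 14277 tested genes with a GC value the figures were -0.43 and -0.35, close to those of the members. After the GC trend of each library was removed, rho over the members was -0.08 and r was -0.06. The removal subtracts the trend over all tested genes, members included, so this weakening follows from the method. DNAJC15 and HSPA2 lay below the median of genes of like GC content, and HSPE1, at 50.2% GC, above it. After GC removal HSPE1 kept a log2 fold change of 0.20, while HSPA8 was at 0.10, CCT8 at 0.10, CCT6A at 0.06, CCT5 at 0.06, DNAJB2 at -0.17 and HSPA4L at 0.11.

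**Figure D5:**
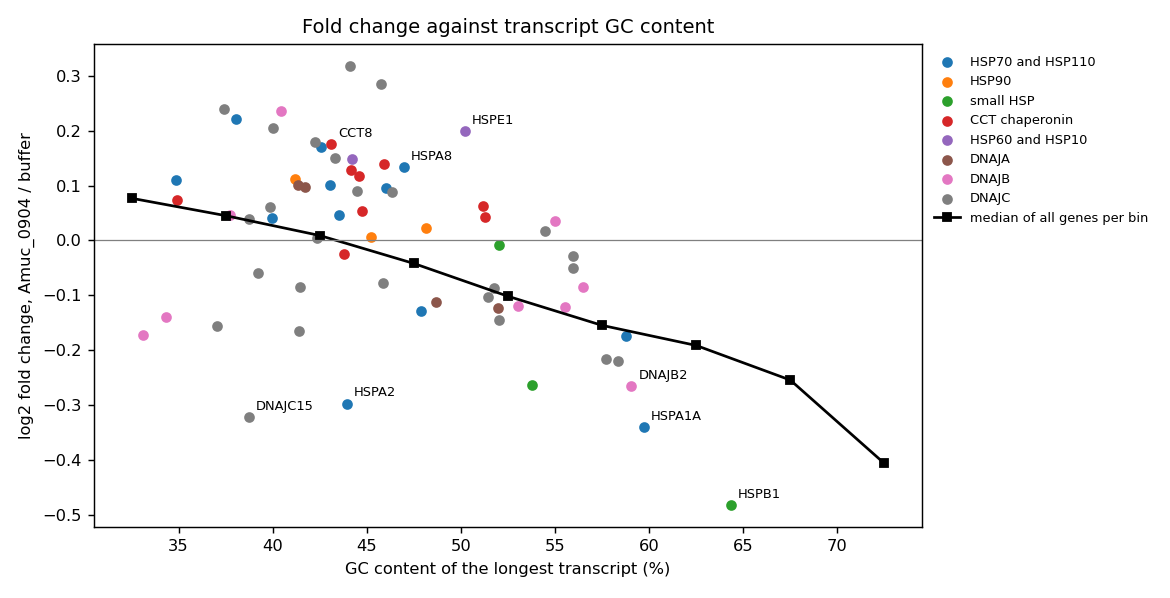
Log2 fold change (Amuc_0904 over buffer) of the 67 tested members against the GC content of their longest transcript, coloured by family, with black squares for the median of all tested genes in bins of 5 percentage points. The squares run from above 0 at low GC to below 0 at high GC, and HSPB1 lies below them at 64.3% GC.

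Members with an HSF1-type motif in their promoter did not share a direction. Promoters were found for 71 members in the RefSeq table. Of these 15 (21.1%) held GAANNTTC or TTCNNGAA in the 250 bases before the gene start, against 11.6% of 35116 promoters, with both strands read and overlapping matches counted. The windows of HSPA1A and HSPA1L overlap on opposite strands and share 1 site, which counts for both genes among the 15. Each member counts with 1 promoter, while the 35116 are all listed promoters without that limit. The longer form of 3 units, GAANNTTCNNGAA or TTCNNGAANNTTC, was in 3 members (4.23%) and in 0.441% of all promoters. By family the shorter motif was in 5 of 13 HSP70 and HSP110 promoters, 4 of 6 small heat shock protein promoters, 2 of 8 CCT promoters and 1 of 23 DNAJC promoters, that of DNAJC15. It was in 0 of 3 HSP90 promoters, a statement about these letters in this window alone. The 10 tested members with the motif had 4 positive and 6 negative log2 fold changes, with a median of -0.10 and a range from -0.48 (HSPB1) to 0.13 (HSPA8). The 51 without it had 32 positive and 19 negative values and a median of 0.04. Both of the 2 tested members with the 3-unit form, HSPA8 and DNAJB6, had positive values (0.13 and 0.04). The near-identical copies HSPA1A and HSPA1B count separately among the 10, and the part of transcript GC content in these medians was not tested.

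A list of 21 textbook heat-inducible genes, which overlaps the families, held 20 tested genes, of which 0 passed in limma and 5 (25%) had an unadjusted p under 0.05, against 20.8% of all genes. Of the 20, 9 had a positive and 11 a negative log2 fold change, with a median of -0.06, as for all tested genes. HSPA8 and HSPE1 were the 2 that were higher in all Amuc_0904 libraries, where 7.00% of all genes were. Another 5 were lower in all of them, HSPB1, HSPA1A and DNAJB1 included, where 20.1% of all genes were.

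The partner genes of these chaperones were taken as a list of 59 by role: regulators of the heat shock response, HSP70 exchange factors, HSP90 co-chaperones, prefoldin and chaperonin partners, and other chaperones. Of the 56 tested, 0 passed in limma and 18 had an unadjusted p under 0.05 (32.1%, against 20.8% of all genes), 7 of them higher and 11 lower. Positive and negative log2 fold changes numbered 28 each, and their median was 0.00. UNC45A, an HSP90 co-chaperone for myosin, was at 37.2, 37.0 and 38.0 TPM with Amuc_0904 and 42.8, 46.6 and 44.6 TPM with buffer. Its log2 fold change of -0.25 had the smallest adjusted p of the list in limma, 0.090. Its transcript GC content is 60.0%, and after GC removal the value was -0.15 (adjusted p = 0.24). PPID, the cyclophilin of HSP90 complexes, was at 52.3, 47.7 and 56.7 TPM with Amuc_0904 and 44.7, 41.0 and 38.6 TPM with buffer, higher in all 3 (log2 fold change 0.33, limma adjusted p = 0.095). BAG3, an exchange factor that hands clients to autophagy, was at 16.5, 16.3 and 16.3 TPM with Amuc_0904 and 18.8, 22.3 and 20.9 TPM with buffer, lower in all 3 (log2 fold change -0.32, limma adjusted p = 0.099). HSF1 itself, chosen after its values were seen, was at 35.5, 37.4 and 29.8 TPM with Amuc_0904 and 42.1, 51.0 and 42.5 TPM with buffer. Its log2 fold change was -0.39, its limma adjusted p 0.10 and its transcript GC content 64.7%.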

How the data were processed

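The authors deposited a single table of TPM per gene, quantified with RSEM per the design text of the series and rounded to 2 decimals. Further tools in the submitters' processing notes are HISAT2, StringTie and edgeR, with no version or role, and the build given there is a mouse one (GRCm38.p6), while the identifiers are human Ensembl genes. TPM are not counts, so no count test was run. Genes at 1 TPM or more in at least 3 libraries (14421 of 60664) were fitted with limma 3.58.1 in R 4.3.3 on log2(TPM + 1), all 6 libraries, empirical Bayes with trend, two-sided. P-values were adjusted by Benjamini-Hochberg over all tested genes, with a threshold of 0.05. Log2 fold changes are Amuc_0904 minus buffer. GC content and positions came from GENCODE 29 (longest transcript), matched by gene identifier, and promoters from RefSeq (GRCh38.p14).

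The genes named were, per family, the 2 with the highest mean, the 5 highest and 5 lowest log2 fold changes among members with a mean of at least 5 TPM, all chaperonin, HSP90 and inducible HSP70 genes, and 3 partner genes with the smallest adjusted p. Other genes were chosen after their values were seen. The families behind the rule on gene symbols, and the lists, were chosen with earlier results of these data known. The fit was also run on simulated data with known fold changes and independent noise. These had no difference in GC slope or general level between the groups, so that run does not show how the fit behaves with such differences.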

Additional observations from a re-analysis of the deposited data

How the results depend on the processing

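Over all genes, 197 passed in limma, 53 higher and 144 lower with Amuc_0904 (73.1% lower). The count was 9 with no filter on low TPM (7 higher, 2 lower), 432 with a filter of 5 TPM (354 lower), 85 with median centring (43 higher, 42 lower, 49.4% lower), 102 with quantile normalization (46 higher, 56 lower, 54.9% lower) and 174 after GC removal (72 higher, 102 lower, 58.6% lower). At an adjusted p of 0.01 it was 29 (14 higher, 15 lower). Leaving out each library in turn gave 35 (without buffer replicate 2) to 112 (without Amuc_0904 replicate 3), with 15 to 38 higher and 20 to 74 lower. No label says whether the replicate numbers pair the samples. Same-numbered libraries correlated at -0.03, 0.08 and -0.09 in their deviations from the group mean, and different-numbered ones at -0.12 to 0.14. With 3 libraries per group these values cannot settle whether samples were paired. With the replicate block 80 genes passed (27 higher, 53 lower) and no member did. Of the members, 1 (HSPB1) passed with the 5 TPM filter and 2 (HSPB1 and DNAJC15) after GC removal; of the heat-inducible list 1 (HSPB1) passed in each of these. With any single library left out, 0 members passed.

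Median log2 fold changes that moved were, with median centring, 0.15 for HSP70 and HSP110, 0.10 for HSP90, 0.15 for CCT, 0.072 for DNAJA, -0.039 for DNAJB, 0.052 for DNAJC and 0.12 for all members. Quantile normalization gave -0.037 for DNAJB and 0.055 for DNAJC, GC removal -0.022 for HSP70 and HSP110, and a pseudocount of 0.1 -0.40 for the small heat shock proteins. The median over all tested genes was 0.018 with median centring, 0.0067 with quantile normalization, -0.072 after GC removal and -0.070 with the pseudocount of 0.1. Leaving out each library gave 0.0093 to 0.11 for HSP70 and HSP110, 0.047 to 0.15 for CCT and -0.40 to -0.19 for the small heat shock proteins. The medians that changed sign in this way were those of HSP90 (-0.028 to 0.051), DNAJA (-0.020 to 0.039) and DNAJC (-0.057 to 0.0089). The cause of these shifts was not tested.

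Of 35 named genes, 28 kept their direction in every setting and 7 did not, all with log2 fold changes close to 0. HSPB11 was at 0.072 with median centring, 0.019 with quantile normalization and 0.016 after GC removal, and ran from -0.070 to 0.041 without each library. TCP1 was at 0.056 with centring and 0.00065 with quantile normalization, and from -0.050 to 0.0053 without each library. After GC removal HSP90AA1 was at -0.049, HSP90AB1 at -0.00078, CCT4 at -0.0074 and CCT6B at -0.054. Without each library HSP90AA1 ran from -0.053 to 0.046, HSP90AB1 from -0.028 to 0.051, CCT6B from -0.010 to 0.19 and DNAJB6 from -0.015 to 0.089. Count-based tests were not run, since TPM keeps no read numbers, and the unknown depth leaves the precision of low genes such as CCT6B and HSPB8 to the spread of 3 libraries.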

Other observations

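Prefoldin hands newly made actin and tubulin to the CCT chaperonin, and most of its genes had positive fold changes. Of the 11 tested genes of prefoldin and other chaperonin partners, 9 had a positive log2 fold change, where 37.5% of all genes did, and the median was 0.15 against -0.06 for all tested genes. Of the 11, 4 had an unadjusted p under 0.05 in limma, all of them higher with Amuc_0904, and 0 passed after adjustment. Of all genes 20.8% had such a p in either direction and 4.49% in the higher direction. The examples here were chosen after their values were seen. PFDN5 was at 638, 627 and 605 TPM with Amuc_0904 and 567, 533 and 546 TPM with buffer, without overlap (log2 fold change 0.18, limma adjusted p = 0.11). TXNDC9, a regulator of CCT, was at 59.6, 58.4 and 60.4 TPM with Amuc_0904 and 52.0, 42.6 and 51.7 TPM with buffer (log2 fold change 0.29, limma adjusted p = 0.12). The median transcript GC content of the 11 genes was 39.5%, below the 49.2% of all tested genes. The part of GC content in their fold changes was not tested.

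Of the other partner genes, GRPEL1 and TRAP1 were chosen after their values were seen. GRPEL1, the mitochondrial exchange factor of HSPA9, was at 68.0, 57.0 and 67.6 TPM with Amuc_0904 and 56.4, 42.6 and 49.4 TPM with buffer, higher in all 3 (log2 fold change 0.37, limma adjusted p = 0.12). TRAP1, the mitochondrial HSP90, was at 205, 199 and 175 TPM with Amuc_0904 and 213, 255 and 245 TPM with buffer, lower in all 3 (log2 fold change -0.30, limma adjusted p = 0.11). Other mitochondrial genes of the list had log2 fold changes of -0.31 for LONP1 (lower in all 3), -0.13 for CLPB, 0.05 for GRPEL2, 0.11 for CLPP and 0.20 for CLPX, and none passed. The transcript GC content was 46.3% for GRPEL1 and 56.0% for TRAP1, and the part of GC content in these values was not tested.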
